A study of Mus musculus with 12 samples.

Results

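Kidneys of 4 db/db mice that received Yiqi Huoxue Yangyin Decoction (YHY) were compared with kidneys of 4 non-diabetic db/m mice (Ctrl), a comparison that asks what still differed from the non-diabetic kidney after treatment. The 8 mice were chosen from the 12 of the series by their group labels, and all genes that passed a filter on low counts were included, 17431 of the 57490 listed. Every mouse was male, on the BKS background, 13 weeks old and a separate animal. The Ctrl mice were heterozygous for the db allele of the leptin receptor gene Lepr and drank no decoction, but received purified water by gavage. The YHY mice were homozygous for db (Leprdb), a genotype in which mice become obese and diabetic because leptin is not sensed. Their decoction was a water extract of 6.24 g/mL, given by daily gavage of 50 µL per 10 g for 4 weeks. A further 4 db/db mice that received water (Model) are given beside these groups. YHY and Ctrl differed in genotype and in treatment at the same time, so the parts of the db mutation and of the decoction in a difference cannot be told apart, and since Model against Ctrl shares the Ctrl mice and YHY against Model shares the YHY mice, their values stand side by side without a further comparison.

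Polyadenylated RNA was sequenced, and the values are reads counted on each gene. The Ctrl libraries 1 to 4 held 33276634, 29632718, 33236670 and 32677732 counts, the YHY libraries 25310437, 25149764, 26187322 and 29698342 counts, and the Model libraries 29784346, 26356745, 26095074 and 24415658. Levels are given as CPM, counts relative to library size after scaling between libraries, as the mean ± SD of 4 mice where a mean is shown, and P is adjusted over all genes tested. Kidney, as whole tissue, is what the sample labels state, whereas the series design speaks of renal cortex. Markers of the nephron were read in all 8 mice, from the phosphate carrier Slc34a1 of the proximal tubule (1417 to 2790 CPM in Ctrl and 965 to 2722 in YHY) to Umod of the thick ascending limb, Aqp2 of the collecting duct and the podocyte gene Nphs1. Proximal tubule markers were not all at like levels. Lrp2 was at 752.5 to 897 CPM in Ctrl and 76.0 to 285 in YHY, without overlap. Slc5a2 was at 19.6 to 74.5 CPM in Ctrl and 11.55 to 137 in YHY, with overlap. Markers of tissues around the kidney were nearly absent: 0 of 8 adipocyte genes and 1 of 9 adrenal genes passed the filter. The summed level of the adipocyte genes was 0.576, 0.249, 0.122 and 0.432 CPM in Ctrl 1 to 4 and 0.915, 0.331, 0.744 and 1.16 in YHY 1 to 4, and Ucp1 was the most abundant of them. The adrenal genes summed to 2.04, 2.37, 1.44 and 2.12 CPM in Ctrl and 3.85, 3.48, 3.87 and 4.22 in YHY, nearly all from Star, which rose (log2 fold change 1.10, adjusted P = 0.00294), while the adrenal enzyme gene Cyp11a1 was at 0 counts in each YHY mouse.

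Some libraries stood apart. YHY 2 had the highest share of counts on the mitochondrial genome, 64.6%, and the fewest genes with a count, 20382, against 21347, 22250 and 22103 in the other YHY mice. Ctrl 2 had a mitochondrial share of 22.7% against 18.6%, 18.4% and 18.5% in the other Ctrl mice, and its Umod level of 525 CPM was the lowest of the 4. The deposited group means of the authors leave out Ctrl 2 and YHY 4. All 8 mice were kept here, and values without each of them are given where they change a result. The gene of the db mutation was read too: Lepr (4.83 to 11.7 CPM in Ctrl, 4.34 to 16.6 in YHY) did not pass the test (log2 fold change 0.11, adjusted P = 0.842), and counts per gene cannot show the db mutation, which acts on splicing.

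The proximal tubule reabsorbs most of what the kidney filters and burns fatty acids for the purpose in its many mitochondria, whose respiratory chain is assembled from subunits encoded in the nucleus and in the mitochondrial genome. In mice, a set of proximal tubule genes is kept high by androgen, so the kidneys of males and females differ. Diabetic nephropathy (DN) is known for podocyte damage, growth of the extracellular matrix, inflammation and disturbed lipid handling, and db/db mice also have high circulating glucocorticoid.

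The treated diabetic kidney differed from the Ctrl kidney in about 1 of every 2 genes tested. Transcripts of the mitochondrial genome, the lipid droplet gene Plin4 and the vitamin D activating enzyme Cyp27b1 were higher in YHY. So were 11 of 23 circadian genes, among them Per1, while 2 were lower. Of 16 genes of glucocorticoid response and metabolism 10 were higher, among them Zbtb16, and 3 were lower. Androgen-dependent transporters and enzymes such as Slco1a1 and Cyp7b1, cholesterol synthesis genes such as Cyp51, nuclear-encoded respiratory chain subunits and enzymes of the renin-angiotensin system were lower. Of the 17431 genes tested, 4547 were higher in YHY (26.1%) and 4215 were lower (24.2%), 8762 in all (50.3%). A difference shown to exceed 1.5-fold was found for 4829 genes (27.7%), of which 2607 were higher and 2222 lower, and in 7777 genes (44.6%) the 4 YHY mice did not overlap with the 4 Ctrl mice. With a fold over 1.2 and an unadjusted P under 0.05, the limits of the study, 5123 genes were higher and 4635 lower. At the other end, 1650 genes (9.47%) had an interval that kept YHY within 1.5-fold of Ctrl. The median over all genes was a log2 fold change of 0.10.

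In the same fit, Model differed from Ctrl in 6631 genes (38.0%), 3412 higher and 3219 lower, and YHY differed from Model in 2311 genes (13.3%), 982 higher and 1329 lower. The balance of directions depends on how libraries of unlike composition are scaled. With library size alone, the median of all genes moved by -0.43 and 28.3% of the called genes were higher in YHY, against 51.9% as reported, and upper-quartile scaling moved the median by 0.12. The balance also turned with the scaling kept: 3915 genes were higher and 4207 lower in a fit of the 8 mice, 4041 and 4439 in the mice of the authors' means, 3740 and 4100 without Ctrl 1, 3711 and 4095 without Ctrl 3, and 3929 and 4240 without Ctrl 4. Changes of gene groups are therefore read beside the median of all genes, and counts of called members beside the 50.3% of all genes that were called.

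**Figure D1:**
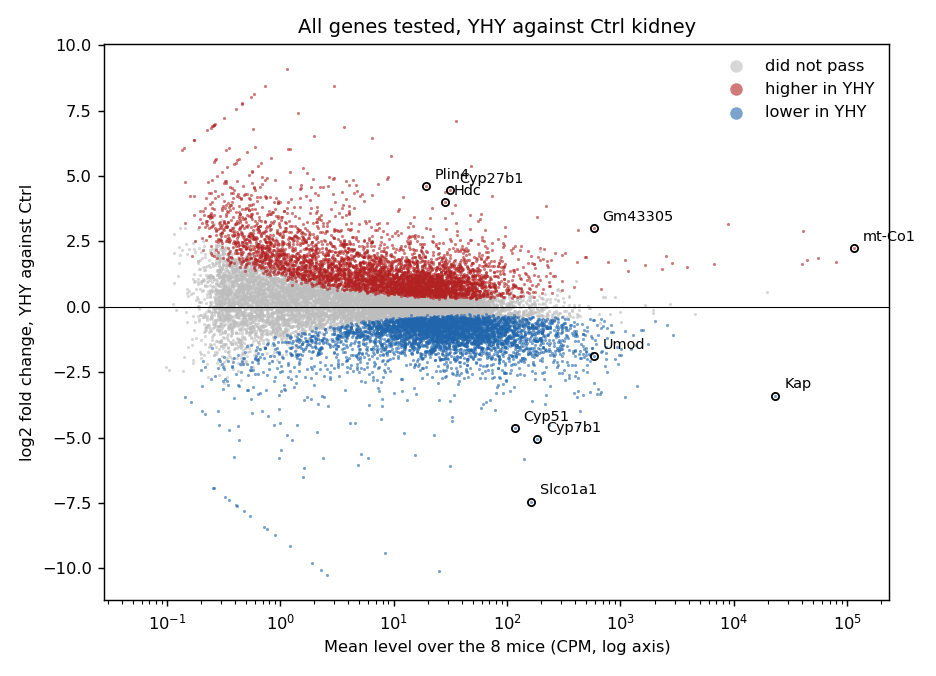
Each point is 1 of the 17431 genes tested, placed by its mean level over the 8 mice (CPM, log axis) and its log2 fold change of YHY against Ctrl; red points were higher, blue points lower and grey points did not pass the test. Slco1a1, at -7.45, and Plin4, at 4.62, are among the labelled genes.

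RNA from the mitochondrial genome made up a large shift in composition. Its share of all counts was 18.6, 22.7, 18.4 and 18.5% in Ctrl 1 to 4 and 53.8, 64.6, 54.6 and 54.2% in YHY 1 to 4. Every YHY mouse was far above every Ctrl mouse, 56.8% ± 5.21 against 19.5% ± 2.12, a difference of 37.3 percentage points with an exact permutation P of 0.029, the smallest that 4 against 4 mice can give. Counting error is small beside this, since the 95% Wilson interval of a library was at most 0.0388 points wide in these 8 mice. The Model mice had 41.2, 58.9, 55.3 and 53.4%. Per 100 counts on nuclear genes there were 22.8, 29.4, 22.5 and 22.7 mitochondrial counts in Ctrl and 117, 182, 120.1 and 118 in YHY. Of the 13 protein-coding genes of the mitochondrial genome, 12 rose and 0 fell, with a median log2 fold change of 1.78 (Model against Ctrl 1.91) beside 0.10 over all genes. The abundant mt-Co1, a subunit of cytochrome c oxidase, was at 35630, 51440, 38020 and 35440 CPM in Ctrl and 145300, 266600, 152700 and 187400 in YHY. The lowest YHY value was above the highest Ctrl value (log2 fold change 2.23, SE 0.32, adjusted P = 4.04e-05). The complex I subunit genes mt-Nd5 (2.91) and mt-Nd6 (3.16) had the largest rises of the 13, and mt-Nd6 is the only protein-coding gene on the other strand of that genome.

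The nuclear part of the same machinery moved the other way. Of 81 nuclear-encoded respiratory chain genes, 0 rose and 54 fell, with a median of -0.79 (Model against Ctrl -0.29). Atp5b, the catalytic subunit of ATP synthase and the most abundant of them, was at 1808, 1800, 1978 and 1979 CPM in Ctrl and 574, 516, 672 and 675 in YHY. All YHY mice lay below all Ctrl mice (log2 fold change -1.63, SE 0.16, adjusted P = 1.77e-06). The oxidase subunit gene Cox5a (-1.98), the ATP synthase stalk gene Atp5pb (-1.87) and Cycs, which encodes cytochrome c (-1.61), fell as well. In the list of mitochondrial biogenesis factors 10 rose and 4 fell of 20, with a median of 0.38. Of this list 70.0% were called, beside 50.3% of all genes. The factors that run transcription and replication inside the organelle divided: Tfam, which packages mitochondrial DNA, fell from 35.6 ± 3.31 to 18.9 ± 1.21 CPM (log2 fold change -0.92, adjusted P = 5.77e-05), and the terminator gene Mterf1a rose (log2 fold change 1.32, adjusted P = 0.000614). Among coactivators and receptors, Ppargc1b rose (1.61) and Esrrg (-0.95) and Esrra (-0.47) fell. Whether mitochondrial number, RNA quality or loss of other RNA moved with the mitochondrial share was not tested.

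**Figure D2:**
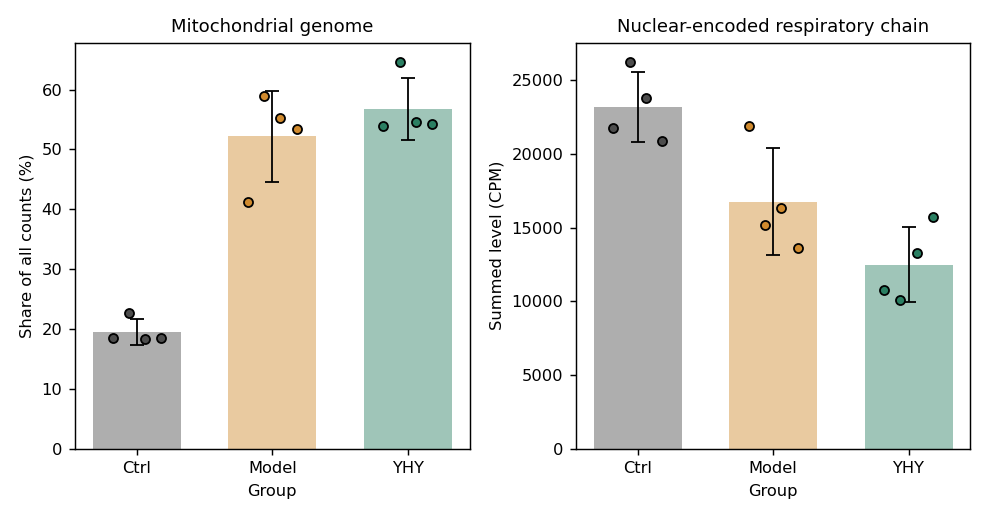
The left panel shows the share of counts on the mitochondrial genome (percent) in each mouse of Ctrl, Model and YHY, and the right panel the summed level of the nuclear-encoded respiratory chain genes (CPM); bars are means, error bars are SD and points are the 4 mice. YHY mice sit at 53.8% to 64.6% on the left against 18.4% to 22.7% for Ctrl, while on the right they lie below all Ctrl mice.

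Androgen-dependent genes of the proximal tubule were lower in YHY. Slco1a1 (ENSMUSG00000041698, chromosome 6, 141853008 to 141892688), an organic anion carrier of the brush border, was at 436, 429.7, 329 and 91.5 CPM in Ctrl 1 to 4 and 0.763, 5.36, 0.0372 and 1.63 in YHY 1 to 4. The lowest Ctrl mouse, Ctrl 4, was still above all YHY mice (log2 fold change -7.45, SE 0.80, adjusted P = 2.78e-06). Cyp7b1 (ENSMUSG00000039519, chromosome 3, 18126114 to 18297502), which hydroxylates oxysterols and steroids, had 369, 307, 363 and 388 CPM in Ctrl and 9.76, 14.0, 11.6 and 7.59 in YHY, without overlap (log2 fold change -5.06, SE 0.22, adjusted P = 7.26e-10). Of the 14 androgen-dependent genes, 0 rose and 12 fell, with a median of -3.24 (Model against Ctrl -2.52). They include Kap (ENSMUSG00000032758, chromosome 6, 133826814 to 133830725), the kidney androgen-regulated protein gene, which was the nuclear gene with the largest loss in level, from 44650, 58080, 46770 and 20280 CPM in Ctrl to 3421, 5762, 1755 and 5149 in YHY. Each YHY mouse lay below Ctrl 4, the lowest Ctrl mouse (log2 fold change -3.40, SE 0.41, adjusted P = 8.31e-06). The medium-chain acyl-CoA synthetase gene Acsm3 (-6.08) and the cytochrome P450 gene Cyp2e1 (-3.25) fell, and both were low in Model too (-5.04 and -2.59 against Ctrl). Of genes known to be higher in female kidney 2 rose and 1 fell of 5, with a median of 2.12: Prlr, the prolactin receptor gene, rose from 7.44 ± 4.51 to 39.4 ± 14.4 CPM, the efflux pump gene Abcc3 rose (2.52), and Timd2, a ferritin receptor gene, fell (-3.39). Cyp4a14 was the most abundant of these, at 3.46, 9.54, 11.3 and 266 CPM in Ctrl and 63.9, 130.5, 291 and 778 in YHY. Ctrl 4 and YHY 4 were far above the other mice of their groups, and the gene did not pass the test (log2 fold change 2.12, adjusted P = 0.0978), though it passed without Ctrl 4 (5.21) and under some other alternatives.

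Other genes had large falls too. Slc22a7, the organic anion transporter 2 gene, fell from 278 ± 81.2 to 4.83 ± 2.25 CPM (log2 fold change -5.84, SE 0.39, adjusted P = 4.36e-08) and had been as low in Model, at 3.15 ± 1.32. Alox15, a lipoxygenase gene, fell from 45.9, 56.8, 37.9 and 35.9 CPM to 1.37, 2.10, 1.26 and 1.28. All 4 YHY mice were far below the 4 Ctrl mice (log2 fold change -4.89, SE 0.22, adjusted P = 1.26e-09). The aldo-keto reductase gene Akr1c14 (-4.51), the leucine decarboxylase gene Ldc1 (-4.21) and the glucuronosyltransferase gene Ugt2b38 (-4.57), whose reads may be shared with sister genes, fell without overlap. Selenop, which encodes the plasma selenium carrier, was at 967, 721, 959 and 644 CPM in Ctrl and 57.3, 56.0, 43.4 and 50.5 in YHY. It fell (log2 fold change -3.99, adjusted P = 3.25e-09), and the Model mice were at 61.6 to 79.2. Cckar, a cholecystokinin receptor gene, was lower in YHY than in either other group, at 2.01 to 4.22 CPM against 50.6 to 71.8 (Ctrl) and 15.0 to 20.7 (Model). It fell against Ctrl (log2 fold change -4.35, adjusted P = 5.16e-09) and against Model (log2 fold change -2.50, adjusted P = 3.40e-05). In the list of drug and anion transporters 4 rose and 9 fell of 19, with a median of -0.29. Slc22a6, the main uptake carrier for organic anions, was its most abundant member and fell from 753 ± 144 to 249.8 ± 118 CPM, while the hepatic-type carrier gene Slco2b1 rose (1.41). Among xenobiotic enzymes 6 rose and 5 fell of 14 (median 0.14), with the sulfotransferase gene Sult1a1 up (2.24). Of the transporter list 68.4% and of the enzyme list 78.6% were called, beside 50.3% of all genes.

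Among the largest rises, Plin4 (ENSMUSG00000002831, chromosome 17, 56407591 to 56416803), a coat protein gene of lipid droplets, was at 1.27, 1.53, 1.74 and 1.43 CPM in Ctrl 1 to 4 and 47.1, 27.0, 45.0 and 27.9 in YHY 1 to 4. The lowest YHY mouse was more than 10 times the highest Ctrl mouse, and the groups did not overlap (log2 fold change 4.62, SE 0.28, adjusted P = 1.95e-08). It was also higher in YHY than in Model, where it ran from 7.88 to 17.4 CPM (log2 fold change 1.38, adjusted P = 0.00262). Hdc (ENSMUSG00000027360, chromosome 2, 126435587 to 126461219), the histamine-forming enzyme gene, was at 1.92, 5.61, 3.13 and 2.80 CPM in Ctrl and 32.1, 38.0, 49.2 and 94.3 in YHY. Every YHY mouse was above every Ctrl mouse, with YHY 4 the highest (log2 fold change 4.00, SE 0.37, adjusted P = 9.46e-07). Col27a1 (ENSMUSG00000045672, chromosome 4, 63132241 to 63253228), a fibrillar collagen gene, rose from 29.8, 44.8, 24.8 and 16.8 CPM to 328, 654, 434 and 249. It did not overlap between the groups (log2 fold change 3.84, SE 0.36, adjusted P = 9.50e-07), and YHY exceeded Model as well (log2 fold change 1.95, adjusted P = 0.00219). The galectin gene Lgals4 (4.23), the stress kinase gene Plk3 (3.58) and Atxn7l2 (3.54) rose in the same non-overlapping way. Amy1 (3.91) and the glutathione transferase gene Gsta2 (4.39) rose too, but both have close copies, so the counts of the single gene are uncertain.

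**Figure D3:**
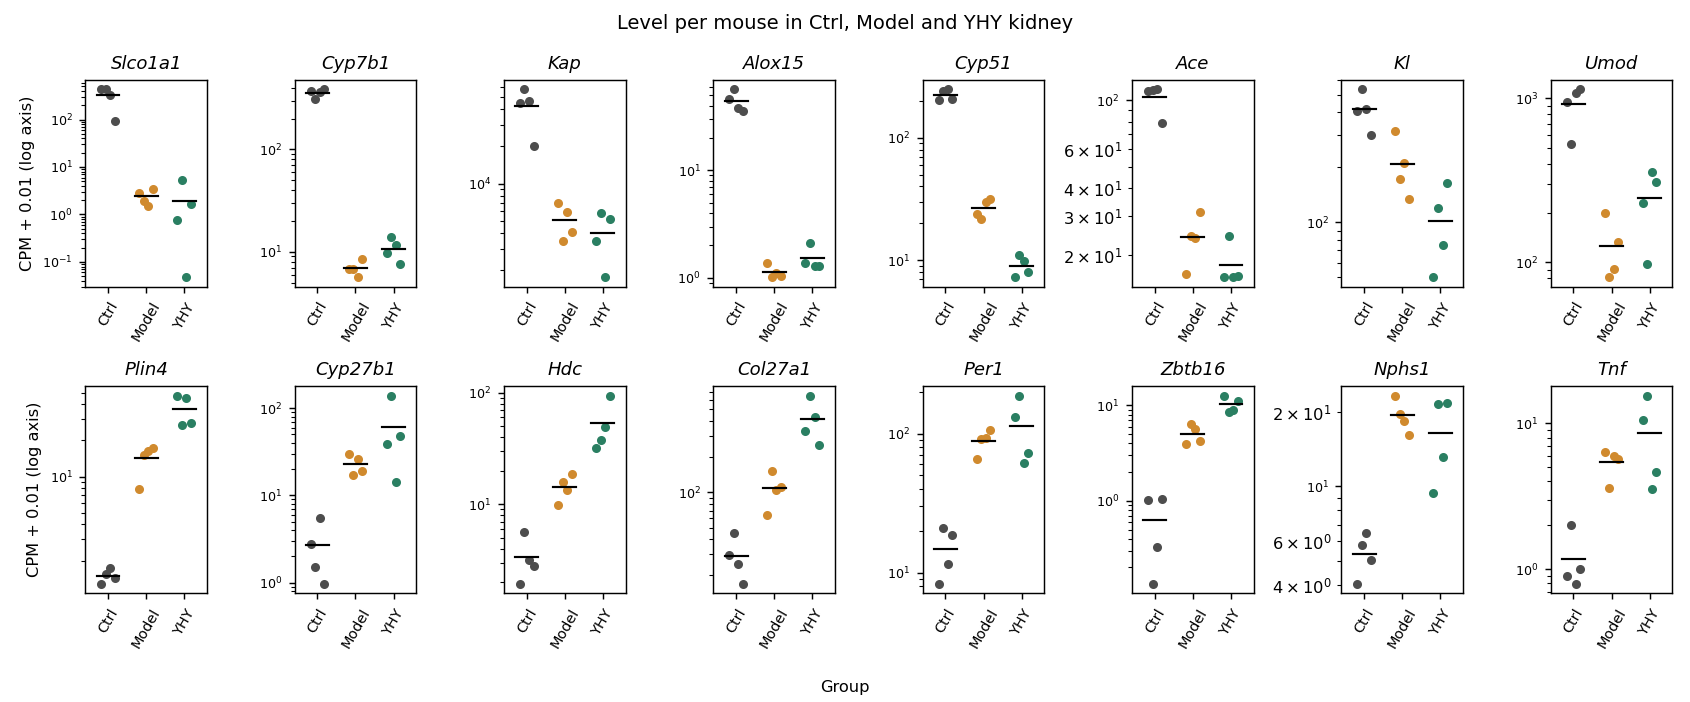
Level (CPM, log axis, with 0.01 added) of 16 genes in each mouse of Ctrl, Model and YHY; each point is 1 mouse and each short line the group's mean. The genes of the upper panels lie lower in all YHY mice than in all Ctrl mice, and those of the lower panels higher.

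Genes for making cholesterol were lower in YHY nearly without exception. Of 28 genes of cholesterol synthesis and its control, 24 fell and 1 rose, with a median of -1.38 (Model against Ctrl -0.68), and their summed level was 1258, 1272, 1276 and 1379 CPM in Ctrl and 447, 464, 404 and 467 in YHY. Cyp51 (ENSMUSG00000001467, chromosome 5, 4131145 to 4154746), the lanosterol demethylase gene, was at 202, 240.4, 249 and 206 CPM in Ctrl and 7.24, 11.1, 9.82 and 8.05 in YHY. The YHY mice lay below all Ctrl mice (log2 fold change -4.64, SE 0.19, adjusted P = 7.26e-10) and below the Model mice, which ran from 21.8 to 31.6 (log2 fold change against Model -1.57, adjusted P = 0.000263). The isomerase gene Idi1 fell (-3.74), and Hmgcs1, the first committed enzyme of the route and the most abundant of the list, went from 168 ± 21.4 CPM (Ctrl) to 123 ± 26.4 (Model) and 67.2 ± 1.62 (YHY). Abca1, which exports cholesterol from cells, was the one that rose: 12.1, 10.3, 12.3 and 16.8 CPM in Ctrl and 36.9, 41.3, 29.9 and 35.3 in YHY. No YHY mouse overlapped with Ctrl (log2 fold change 1.48, SE 0.20, adjusted P = 2.41e-05), and Model ran from 8.14 to 15.7. The factor that drives these genes, SREBP2, is known to bind a sterol regulatory element, so promoters of 300 bases (250 before the start and 50 after, RefSeq, GRCm38.p6) were searched on both strands for TCACNCCAC, a motif chosen after the data had been seen. It was found in 1.44% of the promoters of 27025 genes and in 1 of the 19 list members that matched, Hmgcs1, whose promoter (chr13:119690101-119690400, plus strand) is printed 5′ to 3′ with the motif in capitals. A match describes the letters only and was not tested as a site.
Hmgcs1: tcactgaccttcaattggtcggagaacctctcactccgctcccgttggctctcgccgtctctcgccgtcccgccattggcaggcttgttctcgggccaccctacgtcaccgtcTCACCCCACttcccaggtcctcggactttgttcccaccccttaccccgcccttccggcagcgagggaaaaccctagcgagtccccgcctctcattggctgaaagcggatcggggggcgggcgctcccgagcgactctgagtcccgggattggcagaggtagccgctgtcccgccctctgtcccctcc

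Other lipid lists held genes of both directions. For fatty acid synthesis 4 rose and 12 fell of 21 genes, with a median of -0.73 (Model against Ctrl -0.35). Me1, which supplies NADPH for it, was at 432, 408, 480.4 and 273 CPM in Ctrl and 29.1, 36.3, 22.8 and 32.1 in YHY. No YHY mouse came near Ctrl (log2 fold change -3.73, SE 0.21, adjusted P = 9.12e-09), and YHY was below Model as well (-1.55, adjusted P = 0.000322). The desaturase gene Fads2 fell (-2.25), whereas Mlxipl, the glucose-sensing factor ChREBP, rose from 42.0 ± 7.35 to 125 ± 55.6 CPM and Thrsp, a lipogenic nuclear protein gene, rose (1.69). For fatty acid oxidation and PPARα targets 8 rose and 10 fell of 32, with a median of -0.33 (Model against Ctrl -0.56). Of these genes 56.25% were called, beside 50.3% of all genes. By mouse, relative to the Ctrl mean, this list stood at -0.17, -0.01, 0.09 and 0.04 in Ctrl 1 to 4. YHY 1 to 4 were at -0.79, -0.36, -0.30 and 0.21, so YHY 4 lay above each Ctrl mouse and did not share the fall. Enzymes of the mitochondrial spiral such as Acads (-2.34) and the ketone body enzyme gene Bdh1 (-2.24) fell. On the other side stood a fasting-type gene. Angptl4, an inhibitor of lipoprotein lipase, was at 14.2 to 52.6 CPM in Ctrl and 116 to 201 in YHY and rose without overlap (log2 fold change 2.37, adjusted P = 1.73e-05). Among genes of fatty acid uptake and lipid droplets 7 rose and 5 fell of 17 (median 0.35), and 70.6% were called. The uptake genes Cd36, from 306 ± 69.9 to 25.3 ± 9.62 CPM (log2 fold change -3.60, adjusted P = 1.13e-07), Lpl (-1.94) and Slc27a2 (-0.72) fell, and Slc27a1 (1.91) rose with Plin4.

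Of genes of glucose handling, 52.2% were called in the glycolysis list, 35.7% in glucose transport and production and 50.0% in the fructose and polyol list, beside 50.3% of all genes. In the glycolysis list 5 rose and 7 fell of 23 (median -0.12), in the list of glucose transport and production 2 rose and 3 fell of 14 (median -0.07), and in the list of fructose and polyol enzymes 0 rose and 4 fell of 8 (median -0.70). Ldha, the lactate dehydrogenase subunit gene, fell from 609, 543, 576 and 522 CPM in Ctrl to 137, 119, 100.2 and 130.1 in YHY. The groups were far apart (log2 fold change -2.21, SE 0.15, adjusted P = 7.63e-08), and YHY was below Model (-0.92, adjusted P = 0.00170). Tpi1, the triose phosphate isomerase gene, fell (-1.95), and the isoforms Hk3 (2.34) and Eno2 (2.23) rose from low levels of 1.92 and 1.39 CPM. Of the enzymes of renal glucose production, Fbp1 fell from 539 ± 41.7 to 102 ± 36.5 CPM (log2 fold change -2.41, adjusted P = 1.17e-06), whereas Pck1 was at 1597 ± 472 in Ctrl and 1673 ± 590.2 in YHY (log2 fold change 0.07, adjusted P = 0.862), with Model at 3025 ± 832. Slc5a1, the sodium-glucose cotransporter SGLT1, fell (-1.78), and Slc2a4, the insulin-dependent carrier GLUT4, rose (0.71). The polyol enzyme genes Sord (-1.74) and Akr1a1 (-1.99) fell. In insulin and leptin signalling 4 rose and 4 fell of 22 (median 0.07), and 36.4% were called beside 50.3% of all genes. Among them the feedback inhibitor genes Socs3 (1.30) and Socs2 (1.17) rose, and Akt2 (-1.04) fell.

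Enzymes that make and break angiotensin were lower in YHY. In the renin-angiotensin list 1 rose and 8 fell of 10, with a median of -1.62 (Model against Ctrl -0.72). Ace (ENSMUSG00000020681, chromosome 11, 105858771 to 105880790), the converting enzyme gene, was at 110, 111, 112 and 78.7 CPM in Ctrl and 15.8, 24.4, 16.0 and 16.0 in YHY. Ctrl 4 was the lowest Ctrl mouse and YHY 2 the highest YHY mouse, with no overlap (log2 fold change -2.52, SE 0.21, adjusted P = 3.61e-07). Ren1, the renin gene, went from 74.6, 98.7, 84.9 and 166 CPM in Ctrl to 15.9, 43.5, 13.7 and 64.2 in YHY. YHY 4 came closest to Ctrl, without overlap (log2 fold change -1.63, SE 0.43, adjusted P = 0.00494). Anpep (-1.69) and Mme (-1.70), peptidases of the brush border, fell, and Agt, the precursor, was the single member that rose (log2 fold change 0.77, adjusted P = 0.00674), with overlap. In calcium, phosphate and vitamin D handling 5 rose and 3 fell of 17 (median -0.06), and 47.1% were called beside 50.3% of all genes. Cyp27b1 (ENSMUSG00000006724, chromosome 10, 126884119 to 126888875), the enzyme that makes active vitamin D, was at 2.76, 1.50, 5.55 and 0.956 CPM in Ctrl 1 to 4 and 38.5, 139.6, 14.2 and 48.3 in YHY 1 to 4. YHY 2 was the highest and YHY 3 the lowest of its group, and all were above Ctrl (log2 fold change 4.47, SE 0.62, adjusted P = 2.81e-05). Leaving out each mouse in turn gave log2 fold changes of 3.63 to 5.02. Kl (ENSMUSG00000058488, chromosome 5, 150876072 to 150917282), which encodes klotho, a receptor partner for the phosphate hormone FGF23, fell from 404, 535, 419 and 299.8 CPM to 49.8, 119, 74.9 and 164. It did not overlap (log2 fold change -2.02, SE 0.33, adjusted P = 0.000129), and YHY was below Model, at 208 ± 78.8 (adjusted P = 0.0476). The parathyroid hormone receptor gene Pth1r fell (-1.27), the magnesium channel gene Trpm6 rose (2.52), and the phosphate carrier gene Slc34a1 was at 2040 ± 569.5 in Ctrl and 1854 ± 813 in YHY (adjusted P = 0.718).

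Some circadian genes differed between the groups, 56.5% of the list beside 50.3% of all genes. The labels give no hour of collection, and whether the groups were taken at the same hour was not tested. Of 23 clock genes, 11 rose and 2 fell, with a median of 0.70 (Model against Ctrl 0.66). Per1 (ENSMUSG00000020893, chromosome 11, 68986043 to 69000786), a period repressor that glucocorticoid also induces, was at 8.28, 20.8, 11.5 and 18.6 CPM in Ctrl and 131, 187, 60.9 and 72.5 in YHY. Each YHY mouse was above each Ctrl mouse, with YHY 1 and 2 the highest (log2 fold change 2.93, SE 0.35, adjusted P = 7.43e-06), and Model ran from 65.0 to 106. Ciart, a repressor of the CLOCK and BMAL1 pair, was at 0.384, 0.748, 0.905 and 0.364 CPM in Ctrl and 6.25, 23.9, 0.893 and 2.01 in YHY. YHY 3 fell within the Ctrl range while YHY 2 was more than 20 CPM above it (log2 fold change 3.77, SE 0.76, adjusted P = 0.000710), and without YHY 2 the value was 2.34. The output factor gene Tef, the most abundant of the list, rose from 129 ± 43.8 to 263 ± 118 CPM with overlap (log2 fold change 1.03, adjusted P = 0.00851). Its relative Hlf fell (log2 fold change -0.94, adjusted P = 0.000539), as did Nr1d1, the REV-ERBα gene (log2 fold change -0.80, adjusted P = 0.0164), which had been higher in Model than in Ctrl (0.70) and was lower in YHY than in Model (-1.50, adjusted P = 0.00231). CLOCK and BMAL1 are known to bind E-boxes, so promoters were searched for CACGTG, which reads alike on both strands. It was found in 8.09% of the promoters of 27025 genes and in 5 of the 18 clock genes that matched, among them the 3 shown, printed 5′ to 3′ along the gene's strand with the E-box in capitals: Per1 (chr11:69098699-69098998, plus strand), Ciart (chr3:95882179-95882478, minus strand), which holds 3, and Tef (chr15:81802423-81802722, plus strand). The coordinates are those of GRCm38.p6, unlike the deposited gene coordinates, which are those of GRCm39. The E-box was not particular to clock genes, since 6 of the 19 cholesterol synthesis genes that matched held it too. The D-box TTATGTAA was in 1.11% of all promoters and in 1 of the 18.
Per1: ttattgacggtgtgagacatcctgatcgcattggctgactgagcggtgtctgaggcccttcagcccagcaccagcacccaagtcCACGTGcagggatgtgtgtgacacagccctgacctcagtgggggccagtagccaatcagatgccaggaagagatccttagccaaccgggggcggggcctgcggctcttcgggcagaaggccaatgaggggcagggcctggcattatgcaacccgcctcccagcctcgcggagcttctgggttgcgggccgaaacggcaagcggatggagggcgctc
Ciart: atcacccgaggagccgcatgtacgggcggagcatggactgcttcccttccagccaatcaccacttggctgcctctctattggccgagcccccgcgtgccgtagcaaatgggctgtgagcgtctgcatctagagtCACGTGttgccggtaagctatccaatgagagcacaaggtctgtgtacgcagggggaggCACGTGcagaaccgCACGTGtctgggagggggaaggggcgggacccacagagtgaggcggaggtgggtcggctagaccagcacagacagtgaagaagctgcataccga
Tef: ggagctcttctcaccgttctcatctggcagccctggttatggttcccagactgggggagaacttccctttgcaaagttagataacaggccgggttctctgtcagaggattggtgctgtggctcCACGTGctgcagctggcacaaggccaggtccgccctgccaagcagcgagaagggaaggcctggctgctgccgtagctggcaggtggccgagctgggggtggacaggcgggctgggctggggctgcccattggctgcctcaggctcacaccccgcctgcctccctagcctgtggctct

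Several genes that glucocorticoid induces were higher in YHY. Of 16 genes of glucocorticoid response and metabolism, 10 rose and 3 fell, with a median of 1.26 (Model against Ctrl 0.84). Zbtb16, a factor with a strong response to the hormone, was at 1.01, 0.125, 0.318 and 1.02 CPM in Ctrl and 12.7, 8.56, 8.89 and 11.2 in YHY. The YHY mice stood far above all Ctrl mice (log2 fold change 4.03, SE 0.45, adjusted P = 4.00e-06). Hif3a, at 0.182 to 0.759 CPM in Ctrl and 6.66 to 12.6 in YHY, rose (log2 fold change 4.42, adjusted P = 7.05e-06), and Mt1, a metallothionein gene, from 104 ± 26.5 to 429 ± 66.0. The receptor gene Nr3c1 (-1.05) and Hsd11b1, which regenerates the hormone (-1.49), fell. Among immediate-early genes 8 rose and 0 fell of 16 (median 0.52), including Dusp1 (1.08) and Myc, which was higher than in Ctrl (log2 fold change 1.33, adjusted P = 0.00392) and than in Model (log2 fold change 1.55, adjusted P = 0.00951). Of this list 50.0% were called, beside 50.3% of all genes. By mouse, relative to the Ctrl mean, the immediate-early list stood at -0.13, 0.12, -0.08 and 0.22 in Ctrl 1 to 4. YHY 1 to 4 were at 0.75, 0.63, -0.27 and 0.80, so YHY 3 lay below each Ctrl mouse and did not show the rise.

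Along the nephron the lists moved unequally, and in bulk tissue fewer cells of a type and less RNA per cell cannot be told apart. Of 26 proximal tubule genes, 2 rose and 15 fell, with a median of -0.96 (Model against Ctrl -0.58), and their sum was 60066, 77200.5, 63294 and 33446 CPM in Ctrl and 10215, 15854, 9075 and 17043 in YHY. Most of that Ctrl sum came from Kap, and without it the sums were 15419, 19122, 16527 and 13164 in Ctrl and 6794, 10092, 7320.3 and 11894 in YHY. The straight-segment amino acid carrier gene Slc7a13 fell from 762 ± 219.6 to 70.2 ± 29.2 CPM (log2 fold change -3.44, adjusted P = 5.26e-07), and Slc9a3, the sodium-hydrogen exchanger, rose (0.70). Slc5a12, a lactate carrier gene, was at 9.11, 24.7, 19.1 and 223 CPM in YHY 1 to 4 against 11.5, 25.4, 23.4 and 3.69 in Ctrl. Only YHY 4 was above the Ctrl mice, and the call (log2 fold change 2.11, adjusted P = 0.0364) was lost without that mouse (0.13) and without Ctrl 1 (1.89), Ctrl 3 (2.26) or Ctrl 4 (1.69). In the thick ascending limb 1 rose and 4 fell of 10 (median -0.05), and 50.0% were called beside 50.3% of all genes. Umod (ENSMUSG00000030963, chromosome 7, 119061934 to 119078505) fell from 943, 525, 1075 and 1137 CPM to 229, 97.2, 355 and 309. The groups did not overlap (log2 fold change -1.89, SE 0.37, adjusted P = 0.000535), and Model was at 80.8 to 199.8. The salt carrier gene Slc12a1 of the same segment was at 783 ± 241 in Ctrl and 1024 ± 384 in YHY (log2 fold change 0.39, adjusted P = 0.252), and the tight junction gene Cldn16 fell (-1.24).

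In the distal convoluted tubule 3 rose and 3 fell of 8 (median -0.18), with Wnk4, a kinase that controls salt uptake, up from 71.2 ± 12.4 to 207 ± 24.9 CPM (log2 fold change 1.54, adjusted P = 6.03e-06) and Pvalb down (-1.33). Of distal convoluted tubule genes 75.0% were called, of principal cell genes 45.5% and of intercalated cell genes 36.4%, beside 50.3% of all genes. Among principal cell genes 2 rose and 3 fell of 11 (median -0.15). The water channel gene Aqp3 fell from 64.4, 53.3, 73.2 and 117 CPM in Ctrl to 30.4, 11.1, 20.3 and 18.8 in YHY. The groups did not overlap (log2 fold change -1.93, SE 0.30, adjusted P = 7.77e-05). Aqp2 fell with overlap (log2 fold change -1.43, adjusted P = 0.0101), and Gata3 rose (1.27). Among intercalated cell genes 3 rose and 1 fell of 11 (median -0.34). Slc4a9, an anion exchanger of type B cells, was at 25.0, 44.0, 17.9 and 37.3 CPM in Ctrl and 128, 226, 120.2 and 136 in YHY. The lowest YHY mouse was above the highest Ctrl mouse (log2 fold change 2.29, SE 0.27, adjusted P = 5.35e-06). The proton pump subunit genes Atp6v1c2 (0.94) and Atp6v1g3 (-0.91) moved apart.

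In the glomerular and vascular lists, 44.4% of podocyte, 47.1% of endothelial and 42.9% of mesangial and smooth muscle genes were called, beside 50.3% of all genes. Of 18 podocyte genes, 6 rose and 2 fell (median 0.27, Model against Ctrl 0.56), while their summed level was 501, 496, 565 and 547 CPM in Ctrl and 394, 464, 402 and 498 in YHY, lower on average in YHY. Nphs1, which encodes nephrin of the slit diaphragm, was at 4.03, 5.80, 6.46 and 5.05 CPM in Ctrl and 9.42, 21.5, 13.1 and 21.8 in YHY. Every YHY mouse was above every Ctrl mouse (log2 fold change 1.62, SE 0.25, adjusted P = 6.55e-05), and Model was at 16.1 to 23.2. Synpo, which encodes synaptopodin, rose (0.62), though not without Ctrl 1 (0.52) or YHY 4 (0.47). Wt1, the podocyte transcription factor gene, rose (1.31), and Clic5, a foot process gene, fell (-1.99). Among endothelial genes 8 rose and 0 fell of 17 (median 0.47): Sox17, at 8.49 to 12.3 CPM in Ctrl and 20.1 to 27.4 in YHY, rose, and so did the TGF-β co-receptor gene Eng (0.57). The endothelial sums were 569.7, 485, 594 and 619 CPM in Ctrl and 879, 647, 747 and 650.2 in YHY. Of mesangial and smooth muscle genes 5 rose and 1 fell of 14 (median 0.36), with Pdgfra (1.37) and Des (0.90) up, and the single fall was Ren1. These genes summed to 445, 451, 442 and 447 CPM in Ctrl and 518, 565, 473 and 444 in YHY.

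**Figure D4:**
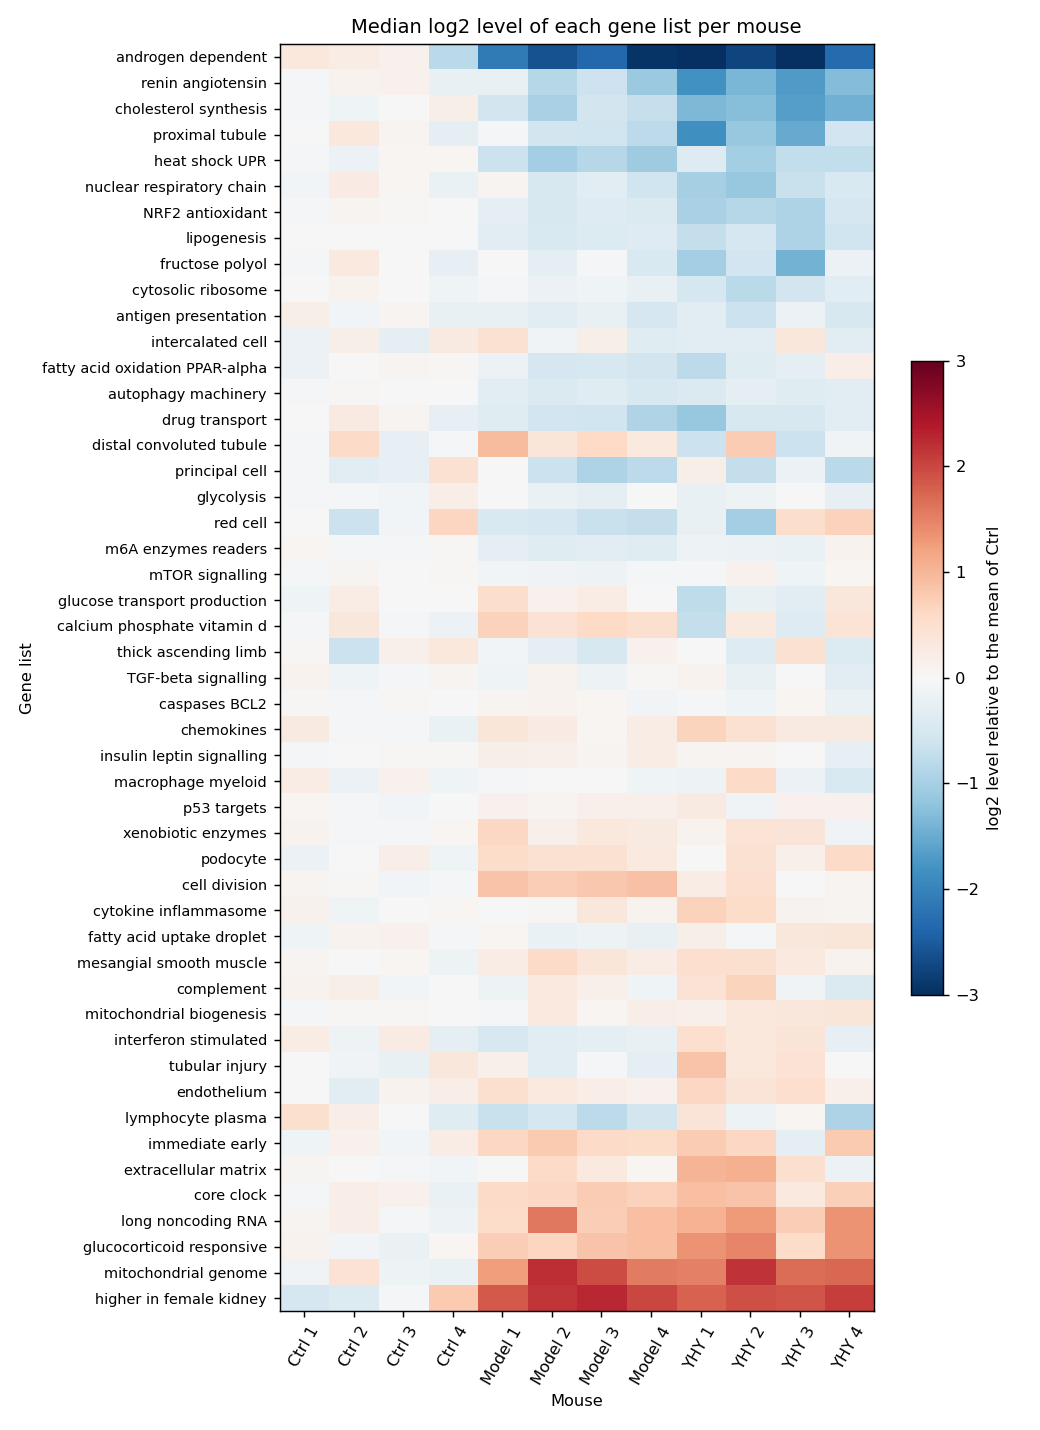
Each line is a gene list and each column 1 of the 12 mice; colour is the median, over the tested genes of a list, of the log2 level relative to the mean of the 4 Ctrl mice. The androgen-dependent, cholesterol and renin-angiotensin lists are low in all YHY mice and the mitochondrial genome list is high.

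By the median of their list, matrix genes were higher in 3 of the 4 YHY mice. Of 31 extracellular matrix genes, 16 rose and 1 fell, with a median of 0.59 (Model against Ctrl 0.25), and their sum was 1676, 1643, 1564 and 1608 CPM in Ctrl and 2749, 2996, 2119 and 1681 in YHY. The median log2 level of the list relative to the Ctrl mean was 0.09, 0.00, -0.07 and -0.08 in Ctrl 1 to 4 and 1.02, 1.07, 0.47 and -0.18 in YHY 1 to 4. By this median YHY 4 lay below each Ctrl mouse and did not show the rise, while its sum of 1681 CPM was just above theirs. Lama5, a laminin chain of the glomerular basement membrane, was at 64.2, 68.9, 63.5 and 70.2 CPM in Ctrl and 242, 295, 260.5 and 226 in YHY. The groups were wide apart (log2 fold change 1.94, SE 0.16, adjusted P = 4.02e-07), and YHY exceeded Model (log2 fold change 0.62, adjusted P = 0.0188). Col4a1, the most abundant member, was at 175, 202, 162 and 185 and 293, 388, 196 and 144 and did not pass (log2 fold change 0.49, adjusted P = 0.113), though it passed without YHY 4 (0.69) and under some other alternatives. Timp3, a protease inhibitor, fell from 253 ± 19.5 to 125 ± 60.8 CPM. In TGF-β signalling 3 rose and 5 fell of 21 (median -0.01): Tgfbr3, a co-receptor gene, rose (0.99, or 0.61 without YHY 1), Bmp7, which opposes TGF-β, fell without overlap (log2 fold change -1.15, adjusted P = 1.27e-05), Tgfbr2 fell (-1.12), and Ccn2 did not pass (log2 fold change 0.47, adjusted P = 0.0969), though it passed without Ctrl 2 (0.75) and under some other alternatives. Of the matrix list 54.8% were called, of TGF-β signalling 38.1% and of tubular injury genes 37.5%, beside 50.3% of all genes. Among tubular injury genes 6 rose and 3 fell of 24 (median 0.45). The 2 that fell most are used as injury markers: Havcr1, the kidney injury molecule gene, had 112, 112, 107 and 165 counts in Ctrl and 1, 0, 2 and 0 in YHY. It was close to absent in YHY, at too few counts for a fold (adjusted P = 8.91e-06). Clu, the clusterin gene, fell from 208 ± 56.5 to 50.0 ± 17.4 CPM (log2 fold change -2.06, adjusted P = 0.000251). Cdkn1a (2.09) and Cd44 (1.44) rose, and Spp1, the most abundant, did not pass (log2 fold change 0.39, adjusted P = 0.159).

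Immune genes did not move as a block. Of chemokine genes 52.2% were called, of cytokine and inflammasome genes 47.4% and of macrophage and myeloid genes 55.6%, beside 50.3% of all genes. Of 23 chemokine genes and receptors, 9 rose and 3 fell, with a median of 0.03 beside 0.10 over all genes. That order did not hold under every alternative: relative to all genes the chemokine median was -0.07 as reported and 0.16 without YHY 2, 0.14 without YHY 4, 0.05 without Ctrl 3, 0.19 in the mice of the authors' means and 0.82 with at least 10 counts in every mouse. By mouse, and relative to the Ctrl mean, the list stood at 0.26, -0.03, -0.03 and -0.20 in Ctrl 1 to 4 and 0.67, 0.46, 0.27 and 0.28 in YHY 1 to 4. Ccl3, which attracts myeloid cells, was at 2.71, 3.71, 2.94 and 2.16 CPM in Ctrl and 23.1, 38.6, 9.60 and 10.2 in YHY. YHY 1 and 2 were higher than YHY 3 and 4, and all 4 were above Ctrl (log2 fold change 2.82, SE 0.39, adjusted P = 2.66e-05). Ccl4 rose in the same way (3.02), Ccl28 fell with overlap (-2.79), and Cxcl12 did not pass (-0.20). Among cytokine and inflammasome genes 7 rose and 2 fell of 19 (median 0.34), with Il6ra up (1.48) and Il34 down (-1.12). Of macrophage and myeloid genes 6 rose and 4 fell of 18 (median 0.09): Cd68, at 4.05 to 5.19 CPM in Ctrl and 8.71 to 24.8 in YHY, rose, Cd14 (1.88) and the lysozyme gene Lyz2 (1.25, or 0.83 without YHY 2) rose, while C1qc (-1.07) and Ly86 (-1.41) fell. Their summed level, led by Lyz2, was 458, 299, 423 and 344 CPM in Ctrl and 489, 685, 407 and 287 in YHY, with YHY 4 below each Ctrl mouse and YHY 1 and 2 above each. The part of more or fewer myeloid cells in these differences was not tested.

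In the complement list 5 rose and 4 fell of 21 (median 0.36), among interferon-stimulated genes 6 rose and 4 fell of 30 (median 0.39), and among antigen presentation genes 2 rose and 8 fell of 20 (median -0.35). Of these lists 42.9%, 33.3% and 50.0% were called, beside 50.3% of all genes. Of the lymphocyte and red cell lists given below, 23.1% and 33.3% were called. Relative to the Ctrl mean, complement stood at 0.42, 0.66, -0.11 and -0.44 in YHY 1 to 4, against -0.08 to 0.16 in Ctrl. Interferon-stimulated genes stood at 0.52, 0.31, 0.40 and -0.24, against -0.28 to 0.25 in Ctrl. Cfp, which encodes properdin, rose without overlap (log2 fold change 1.83, adjusted P = 5.75e-05) and the decay factor gene Cd55 fell (-1.68). Stat2 (1.50) and Oasl1 (1.82) rose, and Gbp2 fell (-2.38). H2-Eb1, a class II chain, was at 64.7, 35.5, 53.1 and 37.3 CPM in Ctrl and 11.9, 16.6, 19.2 and 13.9 in YHY. All YHY mice were lower (log2 fold change -1.63, SE 0.22, adjusted P = 2.14e-05), as were those of Model at 10.3 to 17.5, and reads of genes of this family may be shared between them. Among lymphocyte and plasma cell genes 3 rose and 0 fell of 13 (median 0.49), and the 3 that rose were immunoglobulin genes. Ighg1 was at 1.25, 0.686, 0.196 and 0.205 CPM in Ctrl and 58.8, 5.08, 3.65 and 0.697 in YHY. YHY 1 was far above all other mice and YHY 4 lay within the Ctrl range (log2 fold change 4.87, SE 1.05, adjusted P = 0.00118), and without YHY 1 the value was 2.41. Of red cell genes 2 rose and 0 fell of 6 with a median of -0.11, and those that rose were Hba-a1 (0.99) and Hba-a2 (1.14), a pair of copies that share reads. Hba-a1 did not pass without Ctrl 1 (0.92), Ctrl 2 (0.89), Ctrl 3 (0.81) or YHY 4 (0.68). The red cell genes summed to 493, 329, 409 and 739.8 CPM in Ctrl and 519, 341, 839 and 1078 in YHY, and the part of blood left in the tissue in the immune values was not tested.

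Antioxidant enzymes and chaperones were more often lower than higher in YHY. In the NRF2 and antioxidant list 4 rose and 16 fell of 28, with a median of -0.75 (Model against Ctrl -0.33). Their summed level, led by Gpx3, was 22592 ± 4127 CPM in Ctrl and 26583 ± 12255 in YHY. Without Gpx3 the sums were 6826, 7675, 7156 and 5916 CPM in Ctrl and 2912, 3057, 2573 and 3829 in YHY. Gclm, the regulatory subunit for glutathione synthesis, was at 416, 427, 426 and 383 CPM in Ctrl and 87.2, 94.0, 99.6 and 101 in YHY. The groups were separated by a wide gap (log2 fold change -2.11, SE 0.15, adjusted P = 1.04e-07). Slc7a11, which imports cystine, was at 0.832 to 1.96 CPM in Ctrl and 3.87 to 10.6 in YHY and rose (log2 fold change 2.30, adjusted P = 0.000133), and Gpx3, the plasma glutathione peroxidase and the most abundant of the list, was at 12750, 20680, 12490 and 16870 in Ctrl and 15500, 30520, 11680 and 36270 in YHY. YHY 2 and 4 lay above the Ctrl mice and YHY 1 and 3 did not, and the gene did not pass (log2 fold change 0.58, adjusted P = 0.156), though it passed without YHY 3 (0.80). In heat shock and the unfolded protein response 3 rose and 13 fell of 24, with a median of -0.84 (Model against Ctrl -0.97). Hspa8, the constitutive chaperone and the most abundant, fell (log2 fold change -0.91, adjusted P = 0.00336), as did Hspa1a (-2.95) and Hspa1b (-2.17), near-identical copies with Ctrl 3 highest among the Ctrl mice. Leaving out each mouse in turn gave -3.37 to -2.17 for Hspa1a and -2.75 to -1.47 for Hspa1b. Sesn2, a stress-induced brake on mTOR, rose with overlap (0.83). Of p53 targets 4 rose and 3 fell of 16 (median 0.11), and 43.8% were called beside 50.3% of all genes. Cdkn1a and Sesn1 (1.23) rose, Ccng1 fell from 162 ± 6.80 to 59.0 ± 4.39 CPM and Zmat3 fell (-0.86).

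RNA classes differed as well. Of 81 genes of the cytosolic ribosome, 56 fell and 2 rose, with a median of -0.55 (Model against Ctrl -0.16). Rps2 was at 311, 265, 339.5 and 326 CPM in Ctrl and 116, 85.8, 124 and 105 in YHY. All YHY mice were lower (log2 fold change -1.53, SE 0.16, adjusted P = 2.00e-06), as they were for Rpl4 (-1.10), the most abundant, and Rpl7l1 (-1.36), whereas Rps18 (1.19) and Rpl36 (0.51) rose, the latter not without Ctrl 1 (0.43), Ctrl 3 (0.40), Ctrl 4 (0.36) or YHY 4 (0.36). Of 11 long noncoding RNAs, most of them nuclear or hosts of small RNAs, 9 rose and 2 fell, with a median of 1.07 (Model against Ctrl 1.13). Malat1, a nuclear speckle RNA, was at 151, 136, 107 and 104 CPM in Ctrl and 495, 518, 464 and 611 in YHY. The YHY mice were all above the Ctrl mice (log2 fold change 2.07, SE 0.23, adjusted P = 3.46e-06), and YHY exceeded Model (0.93, adjusted P = 0.0127). Neat1 (1.90) and Kcnq1ot1 (2.92) rose, and Norad (-0.97) and Pvt1 (-1.69) fell. The mitochondrial share rose in the same mice, and the part of RNA quality in these differences was not tested.

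The study looked at autophagy, mTOR and m6A in these kidneys, so lists of those themes are not independent evidence of direction. Of 45 autophagy genes, 8 rose and 19 fell, with a median of -0.33 (Model against Ctrl -0.41). Sqstm1, the p62 cargo receptor, was at 397, 392, 358 and 436 CPM in Ctrl and 211, 259, 177 and 217 in YHY. No YHY mouse reached the Ctrl range (log2 fold change -0.87, SE 0.16, adjusted P = 0.000315), and Model ran from 158 to 222. Ulk1, the kinase that starts autophagy, was at 35.3, 38.8, 35.4 and 36.1 and 68.4, 120.3, 62.5 and 73.2. Every one of the YHY mice was higher (log2 fold change 1.15, SE 0.20, adjusted P = 0.000200). Becn1 was at 35.2 ± 6.90 in Ctrl and 34.4 ± 4.47 in YHY (log2 fold change -0.04, adjusted P = 0.869), and Map1lc3b, the LC3B gene, fell by a small amount (log2 fold change -0.39, adjusted P = 0.0260) that did not pass without Ctrl 2 (-0.36) or YHY 2 (-0.32). Larger falls were found for the lysosomal membrane genes Lamp1, from 613 ± 42.6 to 130.5 ± 11.2 CPM (log2 fold change -2.23, adjusted P = 5.78e-07), and Lamp2 (-1.69), and for Atg5, needed to lipidate LC3 (-1.79). Optn, another cargo receptor, rose (1.21).

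Of 40 mTOR signalling genes, 11 rose and 12 fell (median -0.10), and 57.5% were called beside 50.3% of all genes. Mtor itself was at 205, 208, 167 and 113 CPM in Ctrl and 152, 174, 122 and 115 in YHY. The groups overlapped, with Ctrl 4 and YHY 4 at like levels (log2 fold change -0.30, SE 0.20, adjusted P = 0.232), and the gene passed without Ctrl 4 (-0.52). Lamtor5, a subunit of the lysosomal Ragulator (-1.95), and Prkaa2, the AMPK α2 gene (-1.64), fell, and Rps6kb2, an S6 kinase (1.68), and Slc38a9, a lysosomal arginine sensor (1.49), rose. Among m6A enzymes and readers 5 rose and 7 fell of 20 (median -0.11). Mettl3, the methyltransferase, was at 7.27, 4.89, 6.90 and 7.94 CPM in Ctrl and 6.71, 3.09, 6.55 and 10.0 in YHY. YHY 2 was below and YHY 4 above every Ctrl mouse, so the groups overlapped (log2 fold change -0.03, SE 0.28, adjusted P = 0.938), and Model was at 3.16 to 3.83. The demethylase gene Fto fell from 41.1 ± 2.55 to 19.1 ± 3.24 CPM (log2 fold change -1.10, adjusted P = 1.02e-05), and the readers Ythdc1 (1.14) and Igf2bp2 (1.41) rose. Of caspase and BCL2 family genes 3 rose and 5 fell of 20 (median 0.00), and 40.0% were called beside 50.3% of all genes. Casp1, which matures IL-1β and IL-18, rose from a low level of 0.906 to 2.65 CPM with overlap (log2 fold change 1.53, adjusted P = 0.00670), and Apaf1, the apoptosome scaffold gene, rose (1.15, or 0.71 without YHY 2). Casp2 (0.45), Casp9 (-0.39) and Casp12 (0.55) did not pass, though Casp2 passed without YHY 1 (0.56) and Casp9 without YHY 4 (-0.51). Tnf was at 0.888, 2.00, 0.783 and 1.00 CPM in Ctrl and 10.6, 15.5, 3.53 and 4.65 in YHY. All YHY mice were above all Ctrl mice, YHY 1 and 2 most (log2 fold change 2.88, SE 0.45, adjusted P = 7.23e-05), and Il18 did not pass (log2 fold change -0.43, adjusted P = 0.555).

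Cell division genes had unlike values in Model and in YHY. Of 40 genes, 9 rose and 2 fell in YHY against Ctrl, with a median of 0.30, while in Model against Ctrl 19 rose and 0 fell, with a median of 1.19. In YHY against Model, 0 rose and 10 fell, with a median of -0.62. Only 27.5% of the list were called between YHY and Ctrl, fewer than the 50.3% of all genes. The share of all genes called was 38.0% for Model against Ctrl. For YHY against Model it was 13.3%. Top2a, a topoisomerase of dividing cells, was at 1.82, 1.19, 1.37 and 0.523 CPM in the Ctrl mice, 8.17, 8.23, 4.52 and 10.4 in the Model mice and 2.71, 4.36, 1.23 and 2.17 in the YHY mice. YHY 3 lay within the Ctrl range and the other YHY mice above it (log2 fold change 1.08, SE 0.41, adjusted P = 0.0394). The call was lost without Ctrl 2 (1.06), Ctrl 3 (1.07), Ctrl 4 (0.76), YHY 1 (1.05) or YHY 2 (0.73), and YHY was lower than Model (log2 fold change -1.59, adjusted P = 0.0184). Foxm1, a factor for mitotic genes, rose against Ctrl (1.25), and the replication gene Mcm6 fell (-0.86). Ccnd1, the most abundant, was at 61.5 CPM (Ctrl), 83.6 (Model) and 54.2 (YHY; adjusted P = 0.419 against Ctrl). The CHR element of mitotic promoters (TTTGAA or TTCGAA, both strands) was in 16 of the 32 cell division promoters that matched and in 21.7% of all promoters.

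Some genes were read in 1 group and nearly not in the other. At most 3 counts in every Ctrl mouse were found for 82 of the genes tested, and at most 3 in every YHY mouse for 34. Neurog2, a neurogenic factor gene, had 307, 141, 237 and 139 counts in Ctrl and 0 in each YHY mouse, at least 40.8-fold lower when a floor of 3 counts per library is set. Kcng1, a potassium channel subunit (197, 226, 147 and 125 counts in Ctrl, 0 in YHY), and Sec14l3 (194, 106, 114 and 192 counts in Ctrl, 0 in YHY) were at least 35.9-fold and 29.8-fold lower. In the other direction, Acr, the acrosin gene of sperm, had 0 counts in each Ctrl mouse and 87, 59, 24 and 45 in YHY, at least 30.0-fold higher, and Model was at 1.06 to 1.81 CPM. Ankrd53 had 0 counts in each Ctrl mouse and 24, 26, 14 and 21 in YHY. BC051142 (20, 10, 61 and 21 counts) and Efcab8 (12, 20, 14 and 30 counts) were at 0 in Ctrl too. All of these are genes of low level even where they were read.

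By change in level among nuclear genes, large losses beside that of Kap were in Acsm2, a medium-chain acyl-CoA synthetase gene (2501 ± 630.4 to 303 ± 226 CPM), Fth1, the ferritin heavy chain (3967 ± 349.5 to 1854 ± 248), and Acy3, an aminoacylase (2019 ± 591 to 187 ± 33.8). Of the 5 largest gains among called nuclear genes whose groups did not overlap, Gm10925, Gm28437, Gm28661 and Gm29216 are annotated as unprocessed pseudogenes. They lie on chromosome 1, and Gm10925, for example, was at 822 ± 303 CPM in Ctrl and 2505 ± 834 in YHY. These pseudogenes are known copies of mitochondrial sequence, which the deposited annotation does not state. Their reads cannot be told from those of the mitochondrial genome, so their own rise is uncertain, and that of Gm28661 did not pass without YHY 2 (1.06). The remaining one, Gm43305 (ENSMUSG00000105703, chromosome 14, 54529900 to 54534913), was at 80.7, 138, 84.2 and 209 CPM in Ctrl and 1633, 1003, 1137 and 364 in YHY. The YHY mice lay above all Ctrl mice, YHY 4 least (log2 fold change 3.02, SE 0.43, adjusted P = 3.12e-05).

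**Figure D5:**
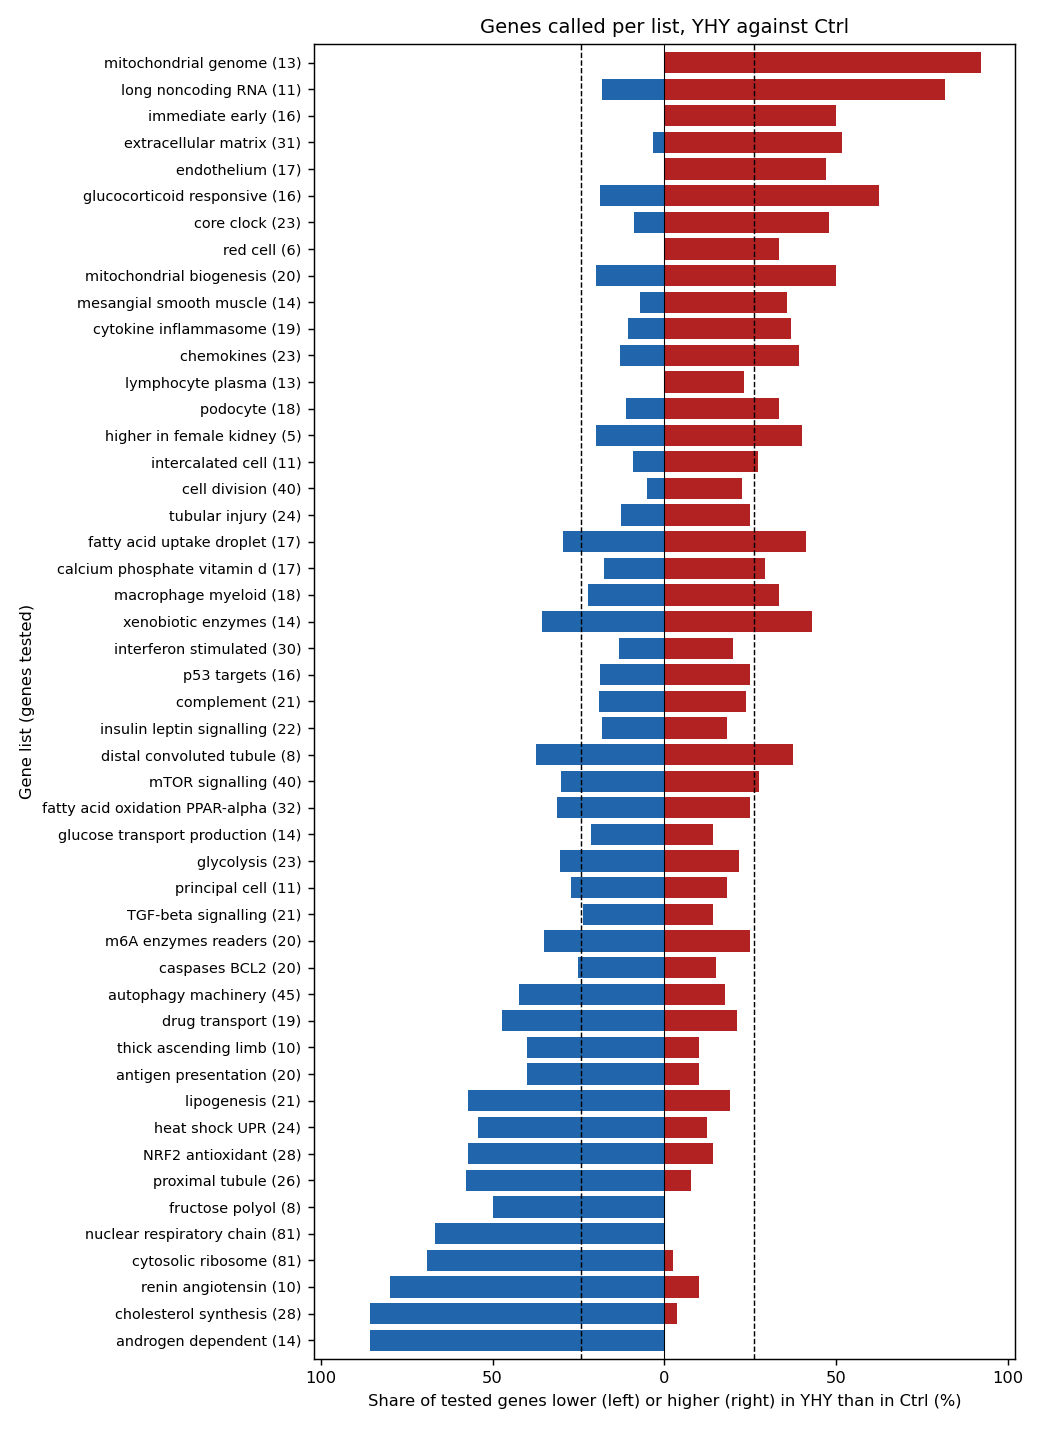
For each gene list the bar shows the share of its tested genes (percent) that were lower (blue, to the left) or higher (red, to the right) in YHY than in Ctrl; the number tested is beside the name, and dashed lines mark the shares over all genes, 24.2% and 26.1%. Cholesterol synthesis and the androgen-dependent list reach furthest to the left.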

How the data were processed

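RNA was sequenced from kidneys of 12 male mice, 4 each of Ctrl, Model and YHY. The deposited table gives, for each of 57490 genes, whole-number counts of reads per mouse and a gene length in bases, and the values are counts without normalization by the authors. The notes of the submitters list FastQC 0.11.9, Trimmomatic 0.39, HISAT2 2.2.1, SAMtools 1.12, featureCounts 2.0.1, DESeq2 1.34.0 and R 4.1.2 and the build GRCm39, and give no strand setting, annotation release or treatment of reads that map to several places. The deposited comparison tables hold a mean signal per group, which the authors made from counts divided by a factor per library. These means were used only to see which mice they average: they leave out Ctrl 2 and YHY 4. The 12 per-mouse columns of those tables, the authors' fold changes and P values and their pathway tables were not used, and no deposited table compares YHY with Ctrl.

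Counts of the 12 mice were filtered with filterByExpr, which left 17431 genes, scaled with TMM and fitted as 3 groups of 4 with the quasi-likelihood model of edgeR 4.0.16 (limma 3.58.1, R 4.3.3, prior count 0.125). YHY against Ctrl was the comparison, and Model against Ctrl and YHY against Model come from the same fit. A gene was called at an adjusted P (Benjamini-Hochberg over all genes tested) under 0.05, and glmTreat tested for a change over 1.5-fold. The SE is the absolute log2 fold change divided by the square root of F, and intervals are at 95%. Per-mouse CPM use the TMM-scaled library sizes. The share of mitochondrial counts was compared with an exact permutation test over the mice, for which 0.029 is the smallest P. Depth ran from 25149764 to 33276634 counts in the 8 mice, so that a floor of 3 counts was 0.0682 to 0.166 CPM, and this floor and the Wilson intervals cover counting error only.

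Genes were named by a rule: the 10 largest rises and 10 largest falls among called protein-coding genes without overlap, with a mean count of at least 50 and a mean of at least 1 CPM in both groups; the 4 most abundant genes whose counts were at most 3 in each mouse of the other group, in each direction; the 5 largest gains and 5 largest losses in CPM among called nuclear genes without overlap; up to 2 rises and 2 falls and the most abundant member of each of 51 gene lists; and Lepr and the study's genes. Tissue markers are also given for the check of the samples. Members and lists were chosen with earlier results of these data known. Some genes of the rule were left out, among them some whose call changed without 1 mouse. Promoters are those of RefSeq (GRCm38.p6), 32851 promoters of 27025 genes.

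Alternatives were upper-quartile scaling, library size alone, TMM without the mitochondrial genome, no filter, at least 10 counts in every mouse, a fit of the 8 mice, the mice of the authors' means, a block for replicate number, DESeq2 1.42.0, and leaving out each of the 8 mice. The fit was tested on simulated data with known changes. Figures were drawn with Python 3.11.15 and matplotlib 3.10.9.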

Additional observations from a re-analysis of the deposited data

Results flagged for a closer look

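In each group of 4 mice, the mouse furthest from the others was compared with the whole range of the group (Dixon's ratio at its 95% critical value). This was done for the genes and gene lists named, tissue markers such as Lrp2 and Slc5a2 left out, and for the library totals and mitochondrial shares. Of 522 groups of 4 tested, 38 held a mouse that far out, and chance flags about 1 in 20 groups. The mice that stood out most often were Ctrl 4, YHY 2 and Ctrl 2. No explanation was tested.

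Ctrl 2 had the lowest total, 29632718 counts, and the highest mitochondrial share of Ctrl, 22.7% against 18.4% to 18.6%, with mt-Co1 at 51440 CPM, mt-Nd5 at 12780 CPM and the mitochondrial genome genes summing to 203896 CPM. It was also apart for Ccn2, a matrix-cell signal gene (73.8 CPM), for Des, the desmin gene (9.17), and for the sum of the mTOR signalling genes (1719 CPM). Ctrl 4 was high for the fatty acid hydroxylase gene Cyp4a14, at 266 CPM against 3.46 to 11.3, and the genes higher in female kidney, Cyp4a14 among them, summed to 345 CPM. In the same mouse Sesn1, a p53 target (11.7 CPM), the kinase gene Wnk4 (89.8) and the sum of the cholesterol synthesis genes (1379 CPM) were high, and Ace (78.7), Acsm2 (1563), Cd55 (8.51) and Stat2 (10.1) were low. Ctrl 3 was high for the heat shock genes Hspa1a, at 150.1 CPM, and Hspa1b, at 269.9 CPM, and Ctrl 1 for Casp1, at 1.49 CPM.

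YHY 2 had the highest mitochondrial share of YHY, 64.6% against 53.8% to 54.6%. It was also high for Ace (24.4 CPM), the reductase gene Akr1c14 (30.8), the lipoxygenase gene Alox15 (2.10), the properdin gene Cfp (17.2), Des (24.6), the anion exchanger gene Slc4a9 (226) and the mitochondrial-like copy Gm28661 (2703), and low for the isoprenoid gene Idi1 (0.11 CPM against 0.991 to 1.15). YHY 1 was high for the antibody gene Ighg1, at 58.8 CPM against 0.697 to 5.08, for the demethylase gene Fto (23.9) and for the receptor gene Tgfbr2 (48.5), and low for the sum of the mitochondrial biogenesis genes (445 CPM). YHY 4 was high for the lactate carrier gene Slc5a12, at 223 CPM against 9.11 to 24.7, for Gsta2 (109.9), for the ribosomal gene Rpl36 (374) and for the sum of the autophagy genes (2502 CPM). YHY 3 was high for BC051142, at 2.27 CPM.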

How the results depend on the processing

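Counts of called genes were recomputed under 17 alternatives. Only library size alone moved a count by more than 1.5 times: 2365 genes were higher (4547 as reported), 2844 were higher with a fold over 1.2 and an unadjusted P under 0.05, 1350 were higher and 3805 lower by more than 1.5-fold, and 851 were within 1.5-fold. Genes within 1.5-fold and the median of all genes are results chosen after seeing the data. That median was 0.10 as reported, 0.22 with upper-quartile scaling and -0.33 with library size alone; it was 0.04 in the fit of 8 mice, 0.02 in the mice of the authors' means, and 0.06 (without Ctrl 3) to 0.11 (without YHY 2) over the mice left out in turn. Lower genes outnumbered higher ones with library size alone, in the fit of 8 mice (3915 higher and 4207 lower), in the mice of the authors' means (4041 and 4439) and without Ctrl 1 (3740 and 4100), Ctrl 3 (3711 and 4095) or Ctrl 4 (3929 and 4240). Leaving out each mouse in turn gave 3711 to 4492 genes higher and 3974 to 4423 lower, 4436 to 5076 higher and 4443 to 4834 lower at a fold over 1.2, 2002 to 2604 higher and 2041 to 2421 lower by more than 1.5-fold, and 1248 to 1682 within 1.5-fold. The difference in mitochondrial share ran from 34.7 to 38.3 percentage points, with an exact permutation P of 0.029 in each case. With a replicate block (mice paired by number), 4259 genes were higher and 4165 lower. The numbers do not pair the mice: after removing group means, YHY mice correlated with the Ctrl mouse of the same number at 0.156, 0.170, 0.0287 and -0.192, and only YHY 2 correlated best with its own number. Relative to the median of all genes, the chemokine list was below 0 as reported and above it with at least 10 counts in every mouse (0.82), in the mice of the authors' means (0.19), without YHY 2 (0.16), without YHY 4 (0.14) and without Ctrl 3 (0.05), with a range of -0.16 to 0.16 over the mice left out in turn, and the adrenal list, 1 gene as reported, was at -0.12 without a filter, where 7 genes were counted. The cause was not tested. Of the genes named, 208 were followed through the alternatives, tissue markers such as Lrp2 and Slc5a2 left out. Of the 208, 176 kept their side of the threshold under every alternative in which they were tested. Of these, 169 also kept their direction, and the other 7 changed sign without being called. No gene changed sign with a call. Depth limits the genes read in few copies, such as Havcr1 in YHY.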

Other observations

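Gene classes differed in direction, while over all genes 26.1% were higher and 24.2% lower. Of 1701 long non-coding RNAs tested, 519 were higher and 111 lower in YHY than in Ctrl, with a median log2 fold change of 0.70, and of 290 genes still to be experimentally checked (TEC) 119 were higher and 10 lower, with a median of 1.38. Of 710 processed pseudogenes 68 were higher and 145 lower (median -0.35), and of 14217 protein-coding genes 3635 were higher and 3897 lower (median 0.03). As shares, 30.5% of the long non-coding RNAs were higher and 6.53% lower, and 41.0% and 3.45% of the TEC genes. For processed pseudogenes the shares were 9.58% and 20.4%, and for protein-coding genes 25.6% and 27.4%. Sorted by deposited gene length into 4 groups, 19.9% of the shortest and 35.1% of the longest genes were higher in YHY. The share over all genes was 26.1%, and the medians of the shortest and longest genes were 0.01 and 0.28. These classes differ in level and in how their reads are mapped, and the part of either was not tested.

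By chromosome, the share of tested genes that were higher in YHY ran from 21.9% on the X chromosome to 31.6% on chromosome 17, leaving out the mitochondrial genome, the Y chromosome and unplaced scaffolds. Over all genes 26.1% were higher and 24.2% lower. On chromosome 17, 268 of 848 genes were higher and 179 lower, with a median of 0.20. On chromosome 7, 389 of 1298 were higher and 256 lower, with a median of 0.25.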
